A study of Mus musculus with 6 samples.

Results

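Foxp3, the Ikaros family members Ikzf1, Ikzf2 and Ikzf3, and 5 further genes used to mark regulatory T cells (Treg), in particular those of thymic origin (Nrp1, Gpr83, Izumo1r, Swap70 and Plagl1), were followed through every probe that the platform annotation gives them. This took in 31 probes of 9 genes, out of 19057 genes named on the array. Transcripts were measured on Illumina bead arrays, on which each probe is an oligonucleotide coupled to beads. The cells came from C57BL/6 mice in the steady state, all of them of the genotype given as Foxp3gfp. They were sorted on the TCR beta chain together with CD4 and Foxp3, either out of mesenteric lymph nodes (MLN Treg, 3 samples) or out of the lamina propria of the colon (cLP Treg, 3 samples). Age and sex of the mice are not used here, and nothing in the labels says whether samples came from separate or pooled animals, so each p-value reflects only how far the samples at hand spread.

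Foxp3 is the transcription factor that specifies and maintains Treg, and its loss causes lethal autoimmunity in mice. Helios, encoded by Ikzf2, and the semaphorin receptor neuropilin 1, encoded by Nrp1, are abundant in mouse Treg that mature in the thymus and have been used to tell these apart from Treg that arise from conventional CD4 T cells in peripheral tissue. The colon is a site where both kinds of Treg are found, and many of its peripherally induced Treg depend on the gut microbiota.

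Between the groups, Foxp3, on which the cells had been sorted, did not pass the test on any probe. The genes that accompany it moved in opposite directions. Helios (Ikzf2) and Aiolos (Ikzf3) were higher in cLP Treg, by 2.23 ± 0.60 and, on the brightest Ikzf3 probe, by 3.51 ± 0.31 log2 units (estimate ± standard error, n = 3 each). Nrp1, Gpr83 and Izumo1r were lower on every probe tested, by 2 or more log2 units in 7 of those 8 probes. Swap70 was higher on 1 of 3 tested probes, the probes of Ikzf1 disagreed in direction, and none of the Plagl1 probes was detected on any array. All values below are log2 intensities after background correction and quantile normalisation, all differences are cLP Treg minus MLN Treg, and a probe passed when its p from limma, adjusted by Benjamini-Hochberg over all 16215 probes tested, was under 0.05.

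Of the 31 probes, 23 were detected on at least 3 of the 6 arrays and were tested, 2 were detected on 2 arrays and 6 on none. In all, 16 of the 23 tested probes passed (69.6%), with 6 higher in cLP Treg and 10 lower. Among the 6 is ILMN_1216717 of Ikzf3, which was tested only because it was detected in cLP Treg. Without MLN sample 2 or MLN sample 3 the number lower was 6, and without a detection filter it was 5. Among all 16215 probes 31.8% passed, 14.5% higher and 17.4% lower. Higher probes made up 45.5% of all calls, against 29.4% with median scaling and 32.2% in the authors' deposited values. The groups did not overlap in 19 of the 23 tested probes, and in 46.5% of all probes tested. The members had been chosen as Treg markers with earlier results of these data known, so these shares describe them and support nothing further. The median difference was -0.01 over the 23 probes and -0.11 over all probes tested. With 1 probe per gene, the brightest, 5 of 8 genes passed, where 32.4% of all 9157 genes did: Ikzf2 and Ikzf3 were higher, and Nrp1, Gpr83 and Izumo1r were lower.

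**Figure D1:**
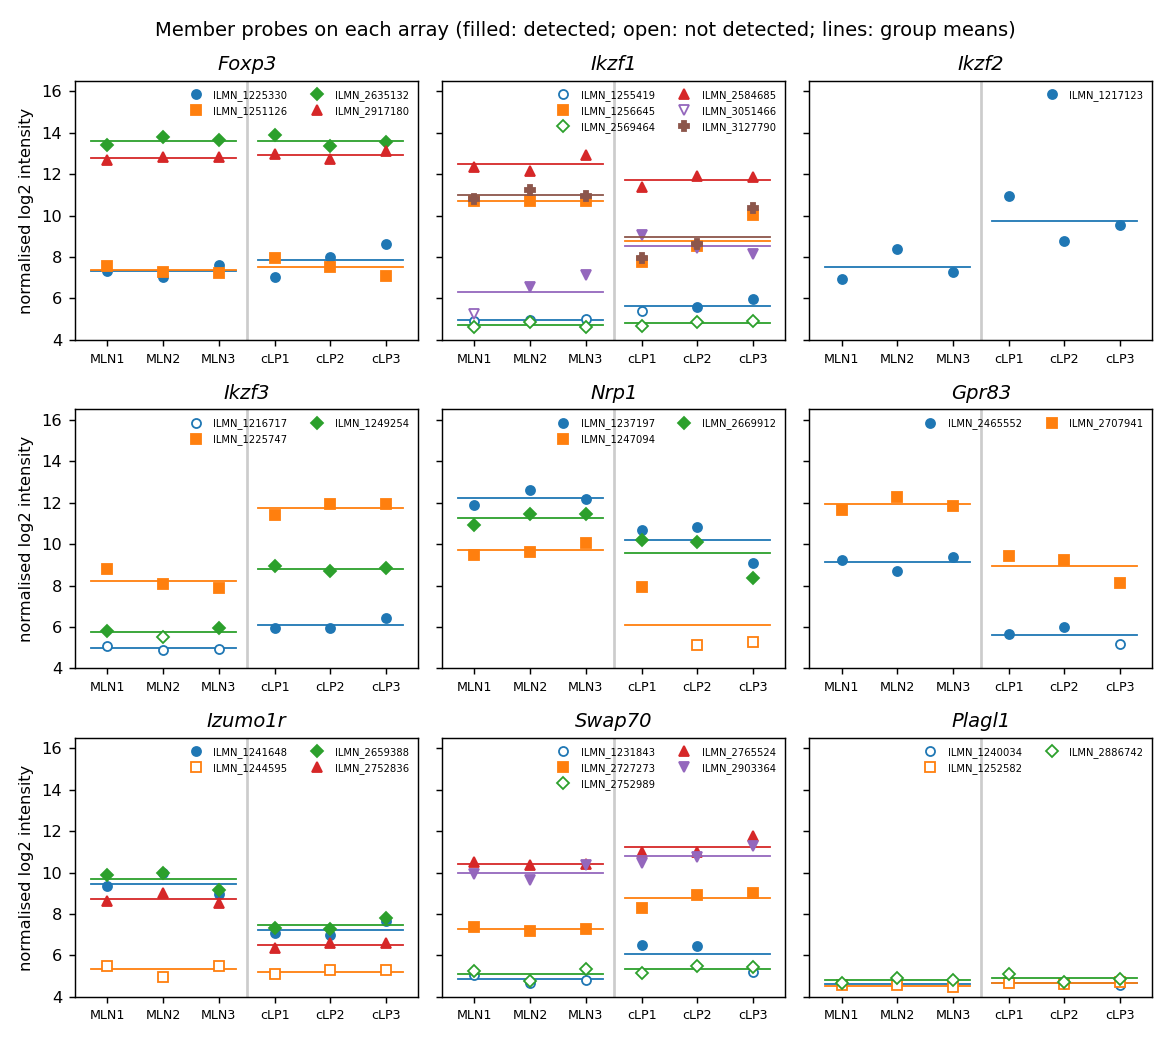
Normalised log2 intensity of all 31 probes on each array, 1 panel per gene; MLN1 to MLN3 and cLP1 to cLP3 are the samples, filled symbols are detected, open symbols are not, and each line is a group mean of 3 arrays. The Foxp3 symbols of both groups overlap, those of Ikzf3 lie higher in cLP Treg and those of Nrp1 and Gpr83 lower.

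Foxp3 was also the gate of the sort, so its presence in all samples follows from the way the cells were chosen. A similar level in both groups cannot be read apart from that gate. Probe ILMN_2635132 gave 13.40, 13.79 and 13.63 in MLN Treg against 13.89, 13.38 and 13.54 in cLP Treg, in the order of sample 1, 2 and 3 that is kept below. Probe ILMN_2917180 gave 12.69, 12.85 and 12.84 in MLN Treg against 12.99, 12.73 and 13.12 in cLP Treg. On both probes the groups overlapped after normalisation, and no sample stood apart. The deposited intensities of ILMN_2917180 were 8412.1, 8276.8 and 8244.0 in MLN Treg and 7817.0, 5449.9 and 7124.9 in cLP Treg. Before background correction and scaling, the groups thus did not overlap on that probe.

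The difference was -0.01 ± 0.24 for ILMN_2635132 (limma, adjusted p = 0.987), with a 95% interval of -0.56 to 0.55. It was 0.16 ± 0.21 for ILMN_2917180 (adjusted p = 0.625), with an interval of -0.34 to 0.66. Of the remaining Foxp3 probes, ILMN_1225330 ranged from 7.02 to 7.60 in MLN Treg and from 7.02 to 8.61 in cLP Treg, and ILMN_1251126 from 7.24 to 7.56 and from 7.08 to 7.94. Their differences were 0.55 ± 0.41 (adjusted p = 0.357) and 0.14 ± 0.28 (adjusted p = 0.749). Their intervals ran from -0.41 to 1.51 and from -0.51 to 0.78. ILMN_1225330 stood at 0.98 without cLP sample 1 (adjusted p = 0.056) and at 0.18 without cLP sample 3 (adjusted p = 0.743). All 4 intervals leave room for a change of either sign, and the sign of 3 of the 4 differences turned with the scaling or the sample left out.

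Helios, a zinc finger transcription factor of the Ikaros family, had 1 probe, ILMN_1217123. It gave 6.92, 8.40 and 7.27 in MLN Treg against 10.94, 8.79 and 9.56 in cLP Treg, from deposited intensities of 255.8, 452.3 and 256.0 and of 1803.0, 403.3 and 656.6. After normalisation all 3 cLP samples lay above all 3 MLN samples, but MLN sample 2 and cLP sample 2 lay close to each other, and in the deposited intensities, before background correction and scaling, these 2 samples overlapped. The difference of 2.23 ± 0.60 (4.70-fold; limma, adjusted p = 0.0268) had a 95% interval of 0.83 to 3.63. It no longer passed without MLN sample 1 (1.93, adjusted p = 0.0961) or MLN sample 3 (2.10, adjusted p = 0.0897), and it ranged from 1.56 to 2.72 over all alternatives, with adjusted p from 0.0189 to 0.124, the highest where no detection filter was set.

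Aiolos, encoded by Ikzf3, is an Ikaros family factor best known from B cells and from activated and effector T cells. Its probe ILMN_1225747 gave 8.79, 8.05 and 7.88 in MLN Treg against 11.39, 11.93 and 11.94 in cLP Treg, from deposited intensities of 714.6, 377.6 and 355.6 and of 2456.2, 3088.0 and 3086.9. The groups were separated by more than 2 log2 units. The difference was 3.51 ± 0.31 (11.4-fold; limma, adjusted p = 0.000434).

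A second Ikzf3 probe, ILMN_1249254, gave 5.79, 5.53 and 5.96 in MLN Treg, of which sample 2 was not detected, and 8.93, 8.69 and 8.84 in cLP Treg. It rose by 3.06 ± 0.22 (adjusted p = 0.000208). The third, ILMN_1216717, was not detected on any MLN array (4.90 to 5.06) and dim in cLP Treg (5.95 to 6.42), where it was at least 1.45-fold higher (adjusted p = 0.00904). This probe was tested only because it was detected in cLP Treg, so that its place among the higher probes adds nothing to their count. Without background correction ILMN_1249254 differed by 1.90 and ILMN_1216717 by 0.50, and in the authors' deposited values by 1.74 and 0.57. The 0.50 of ILMN_1216717 lies below the bound of 1.45-fold given for it. All 3 Ikzf3 probes passed in every alternative in which they were fitted, 12 to 14 each, though for ILMN_1216717 this is no further support.

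Ikaros itself, encoded by Ikzf1, is a founding regulator of lymphocyte development, and it was the gene whose probes disagreed. Probe ILMN_1256645 gave 10.73, 10.72 and 10.72 in MLN Treg against 7.75, 8.51 and 10.05 in cLP Treg. Probe ILMN_3127790 gave 10.81, 11.26 and 10.97 in MLN Treg against 7.95, 8.63 and 10.39 in cLP Treg. On both, the cLP samples lay below all MLN samples and spread widely, with cLP sample 3 close to the lymph node level.

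Those probes fell by 1.96 and by 2.02 (standard errors 0.53 and 0.58; limma, adjusted p = 0.0282 and 0.0329). Neither passed without MLN sample 1, 2 or 3 or without cLP sample 1 or 2. In these fits ILMN_1256645 ran from -1.96 to -1.45 with adjusted p from 0.052 to 0.0835, and ILMN_3127790 from -2.12 to -1.50 with adjusted p from 0.0683 to 0.104. Without cLP sample 3 they stood at -2.59 and -2.72. Without a detection filter neither passed (adjusted p = 0.124 and 0.142).

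The opposite direction came from ILMN_3051466, annotated to the same transcript record as ILMN_3127790. It gave 5.26, 6.56 and 7.15 in MLN Treg, of which sample 1 was not detected, and 9.05, 8.42 and 8.14 in cLP Treg. It was higher in cLP Treg by 2.22 ± 0.50 (limma, adjusted p = 0.0138), by 1.40 without background correction and by 1.24 in the authors' series matrix, and did not pass without a detection filter (adjusted p = 0.0704). The brightest Ikzf1 probe, ILMN_2584685, gave 12.37, 12.15 and 12.91 against 11.39, 11.90 and 11.85, a difference of -0.76 ± 0.28 that did not pass (adjusted p = 0.078), although it did with median scaling (-1.14, adjusted p = 0.0187) and on the series matrix of the authors (-1.04, adjusted p = 0.0268). The other Ikzf1 probes were ILMN_1255419, detected on 2 cLP arrays only, and ILMN_2569464, detected on none. Where along the transcript each probe lies was not used here, and whether the probes differ from each other was not tested. No single direction can be given for Ikzf1. In the family beyond the members, Ikzf5 (Pegasus) was measured at 7.03 ± 0.28 in MLN Treg and 7.14 ± 0.22 in cLP Treg (SD, n = 3 each; difference 0.11 ± 0.25, limma adjusted p = 0.78), with a sign that turned with the scaling. Ikzf4 (Eos) is not analysed here.

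Nrp1, which in T cells stabilises Treg at contacts with semaphorin 4A and is also found on endothelium and dendritic cells, was lower in cLP Treg on all 3 probes. ILMN_1237197 gave 11.87, 12.63 and 12.19 in MLN Treg against 10.70, 10.83 and 9.08 in cLP Treg. ILMN_2669912 gave 10.90, 11.44 and 11.45 against 10.18, 10.12 and 8.34. On both, all cLP samples lay below all MLN samples and cLP sample 3 was the lowest.

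The first fell by 2.03 (standard error 0.49; limma, adjusted p = 0.0177) and the second fell by 1.72 (standard error 0.50, adjusted p = 0.036). ILMN_1247094 gave 9.47, 9.64 and 10.04 in MLN Treg against 7.94, 5.15 and 5.25 in cLP Treg, of which only sample 1 was detected. Its difference of -3.60 ± 0.71 (adjusted p = 0.0087) therefore rests in part on background, and it ranged from -4.52 without cLP sample 1 to -2.43 without background correction. Calls ended for ILMN_1237197 without MLN sample 2 or 3 (adjusted p = 0.0673 and 0.0574) and for ILMN_2669912 without MLN sample 1, 2 or 3 (adjusted p = 0.0709, 0.109 and 0.111). Without cLP sample 3 the latter still passed, at -1.11. Without a detection filter none of the 3 passed (adjusted p = 0.0845, 0.0553 and 0.145 for ILMN_1237197, ILMN_1247094 and ILMN_2669912).

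Gpr83, an orphan G protein-coupled receptor enriched in Treg, had the largest decrease of any member by its brightest probe. ILMN_2707941 gave 11.67, 12.29 and 11.86 in MLN Treg against 9.41, 9.25 and 8.14 in cLP Treg, from deposited intensities of 4352.4, 5632.8 and 4419.8 and of 667.8, 525.7 and 307.3. The groups were more than 2 log2 units apart. It fell by 3.01 (standard error 0.38), or 8.04-fold (limma, adjusted p = 0.00158). ILMN_2465552 gave 9.25, 8.69 and 9.40 against 5.66, 5.98 and 5.19, with cLP sample 3 not detected, and fell by 3.50 (standard error 0.30, adjusted p = 0.000391). Without background correction its difference was -2.22.

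Izumo1r, also known as Folr4 or Juno, encodes a member of the folate receptor family that is the egg receptor for sperm and is also found on Treg. Its 3 tested probes gave almost the same difference: -2.19 ± 0.33 for ILMN_1241648, -2.20 ± 0.29 for ILMN_2659388 and -2.20 ± 0.23 for ILMN_2752836 (limma, adjusted p = 0.00313, 0.002 and 0.000866). The brightest of them, ILMN_2659388, gave 9.86, 9.97 and 9.17 in MLN Treg against 7.32, 7.28 and 7.80 in cLP Treg. All cLP samples lay below all MLN samples on each of the 3 probes. A further probe, ILMN_1244595, was not detected on any array. Every tested probe of Gpr83 and Izumo1r passed in all alternatives in which it was fitted.

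Gpr83 and Izumo1r are neighbours in RefSeq's annotation of GRCm38.p6, on chromosome 9, on opposite strands and with 0 genes between them. Promoter windows of 300 bases, from 250 before to 50 after an annotated start, were at hand for 7 of the 9 genes. They are shown for the 3 genes that fell and for Swap70, which rose on 1 probe. In capitals is any match, on either strand, to GGGAA, the core of the Ikaros family motif, or to GTAAACA, a forkhead motif; these motifs do not overlap in letters here. The windows (RefSeq, GRCm38.p6, written 5′ to 3′ along the gene) are chr9:14859960-14860259 on the plus strand for Gpr83, chr9:14903718-14904017 on the minus strand for Izumo1r, chr8:128358823-128359122 on the plus strand for Nrp1 and chr7:110221453-110221752 on the plus strand for Swap70.
Gpr83: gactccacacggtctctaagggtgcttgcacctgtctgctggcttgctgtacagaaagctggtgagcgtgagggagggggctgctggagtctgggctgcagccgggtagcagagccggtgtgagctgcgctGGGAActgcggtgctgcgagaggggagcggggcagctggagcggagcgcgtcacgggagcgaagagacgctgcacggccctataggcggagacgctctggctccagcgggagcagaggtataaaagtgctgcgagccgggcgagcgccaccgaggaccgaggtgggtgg
Izumo1r: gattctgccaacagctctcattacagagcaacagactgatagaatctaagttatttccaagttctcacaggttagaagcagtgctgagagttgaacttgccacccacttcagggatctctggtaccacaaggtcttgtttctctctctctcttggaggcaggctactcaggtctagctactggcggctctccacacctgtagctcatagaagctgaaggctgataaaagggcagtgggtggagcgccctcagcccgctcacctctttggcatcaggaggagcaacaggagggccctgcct
Nrp1: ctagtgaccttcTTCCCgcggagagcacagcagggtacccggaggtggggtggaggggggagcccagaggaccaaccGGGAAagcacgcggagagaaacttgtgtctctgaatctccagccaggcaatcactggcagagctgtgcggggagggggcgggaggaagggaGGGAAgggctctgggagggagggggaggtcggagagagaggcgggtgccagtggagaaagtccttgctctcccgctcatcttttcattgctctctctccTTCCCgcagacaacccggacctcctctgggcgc
Swap70: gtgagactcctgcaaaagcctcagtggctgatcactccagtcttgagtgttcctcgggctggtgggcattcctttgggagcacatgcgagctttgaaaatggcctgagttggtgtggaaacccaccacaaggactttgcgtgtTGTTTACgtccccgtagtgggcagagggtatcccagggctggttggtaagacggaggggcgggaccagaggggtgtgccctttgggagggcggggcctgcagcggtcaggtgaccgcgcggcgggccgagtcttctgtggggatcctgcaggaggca
GGGAA or its complement was found in 4 of the 9 windows of members (some genes have more than 1) and in 62.7% of 32851 windows of all genes. Among the windows shown it occurs 4 times for Nrp1, 1 time for Gpr83 and in neither of the others. GTAAACA was found in 1 of the 9, that of Swap70, and in 3.65% of all windows. These are matches of letters only and say nothing about binding.

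Swap70, which encodes a protein of the actin cytoskeleton and of Rac signalling known best from B cells, was higher in cLP Treg on 1 of its 3 tested probes. ILMN_2727273 gave 7.35, 7.17 and 7.26 in MLN Treg against 8.31, 8.93 and 9.02 in cLP Treg, a difference of 1.49 ± 0.26 (limma, adjusted p = 0.00514), or of 0.89 on the series matrix of the authors. ILMN_2765524 gave 10.50, 10.36 and 10.39 against 10.97, 11.00 and 11.75, and ILMN_2903364 gave 9.95, 9.65 and 10.35 against 10.46, 10.73 and 11.27. On all 3 probes the cLP samples lay above the MLN samples. The differences of the last pair, 0.82 ± 0.27 and 0.84 ± 0.30, did not pass (adjusted p = 0.0544 and 0.0703), and ranged from 0.35 to 1.02 over the alternatives, of which ILMN_2765524 passed in 4 and ILMN_2903364 in 1. ILMN_1231843 was detected only in cLP samples 1 and 2, and ILMN_2752989 on no array.

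Plagl1, which encodes an imprinted zinc finger protein that restrains cell growth, lay between 4.46 and 5.10 on all its 3 probes in all 6 samples. Its detection p ran from 0.146 to 0.993, so no level and no difference could be measured for it.

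**Figure D2:**
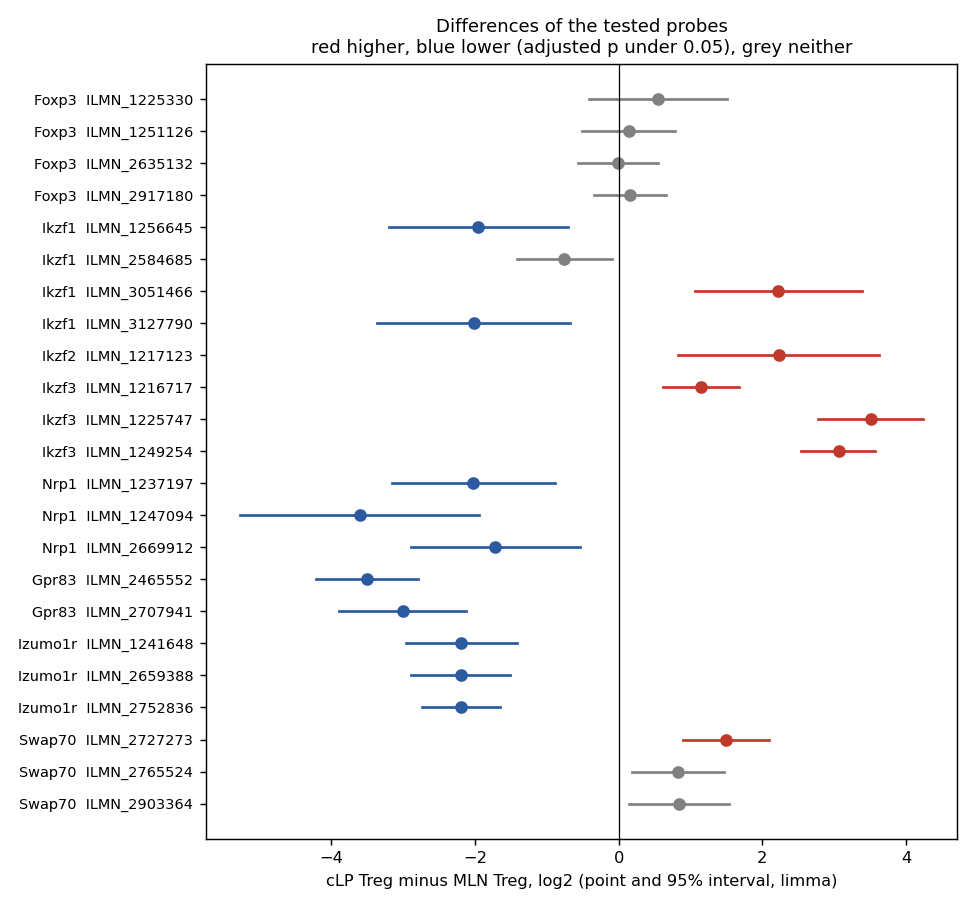
Difference between cLP Treg and MLN Treg on the log2 scale for the 23 tested probes, with point and 95% interval from limma; red passed as higher, blue as lower, grey did not pass. The 4 Foxp3 intervals span 0, the 8 probes of Nrp1, Gpr83 and Izumo1r lie below 0 and the 3 of Ikzf3 above it.

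The members, like all probes tested, varied more among cLP samples than among MLN samples. The median SD of the 23 tested probes was 0.30 in MLN Treg and 0.41 in cLP Treg, against 0.26 and 0.39 over all probes tested. Ikzf1, Ikzf2 and Nrp1 had the wider SDs among the cLP samples (1.17 and 1.26 for the Ikzf1 probes that fell, 1.09 for Ikzf2 and 0.98 to 1.59 for Nrp1). No one cLP sample was extreme in the same sense for all: sample 1 was highest for Helios, and sample 3 was nearest to the lymph node for the Ikzf1 probes that passed but farthest from it for ILMN_1237197 of Nrp1 and ILMN_2707941 of Gpr83.

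**Figure D3:**
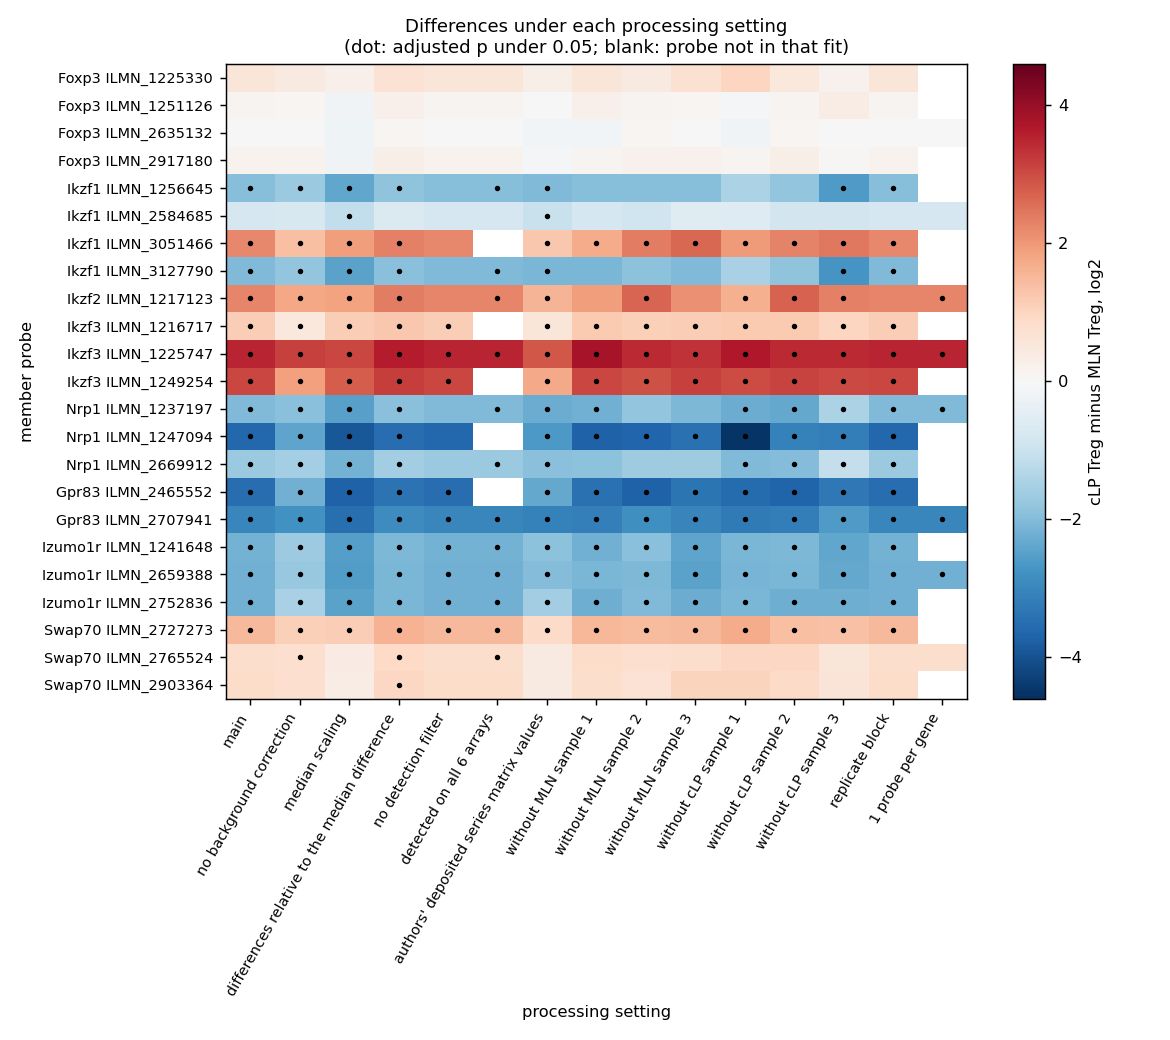
Difference of each tested probe (rows) under each processing setting (columns), as colour on the log2 scale, where a dot marks an adjusted p under 0.05 and a blank a probe not in that fit. Gpr83, Izumo1r and Ikzf3 carry a dot wherever they were fitted, and Helios, Nrp1 and Ikzf1 lose it in some columns that leave out an MLN sample.

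Genes that act with Foxp3 or control it were measured for 25 of 31 listed, and 7 rose, 3 fell and 15 did not pass. Their median difference was 0.70, against -0.21 over all genes taken with 1 probe each. Of all 9157 genes taken with 1 probe each, 32.4% passed, and 37.3% of these calls were higher in cLP Treg. These shares are the background for this list and the next ones. Rel, the NF-kB subunit needed for Foxp3 induction in the thymus, rose by 4.08 ± 0.39 (limma, adjusted p = 0.000553). The Rel difference was 3.05 without background correction and 2.83 in the authors' deposited values. Runx1, which forms a complex with Foxp3, rose by 2.73 ± 0.40 (adjusted p = 0.00283), or by 1.78 in the authors' deposited values. Nfatc1, a calcium-regulated factor of the family that binds DNA together with Foxp3, fell by 3.13 (standard error 0.35, adjusted p = 0.00097). The number that rose was 4 without MLN sample 1.

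Of 19 measured genes of the Treg surface and effector signature, 10 rose and 4 fell, with a median of 0.88, against the 32.4% of all genes that passed. The inhibitory receptor Tigit rose by 2.98 ± 0.28, the TNF receptor Tnfrsf9 by 2.83 ± 0.38 and the costimulator Icos by 2.55 ± 0.23 (limma, adjusted p = 0.000553, 0.0021 and 0.000439). The interleukin 2 receptor alpha chain Il2ra, the ectonucleotidase Entpd1, the integrin Itgae and the matrix protein gene Ecm1 fell.

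A short list of genes linked to peripherally induced Treg had 5 measured members, of which 3 rose and 2 fell, again beside 32.4% of all genes. Maf, a factor of microbiota-dependent colonic Treg, was not detected on any MLN array and was at least 5.51-fold higher in cLP Treg (limma, adjusted p = 0.00712). It was tested only because it was detected in cLP Treg, so that its place among the 3 adds nothing to the count. Its difference of 3.00 on the log2 scale became 1.70 without background correction and 1.66 in the authors' deposited values, both below that bound. Il10 rose by 5.17 ± 0.20 (adjusted p = 5.55e-05) and Prdm1, which encodes Blimp-1, also passed as higher. Igfbp4 fell by 4.03 (standard error 0.29, adjusted p = 0.000208) and Dapl1, detected on 1 cLP array, fell by 2.36 (standard error 0.36, adjusted p = 0.0032). The Dapl1 difference was -1.21 without background correction and -1.22 in the authors' deposited values.

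**Figure D4:**
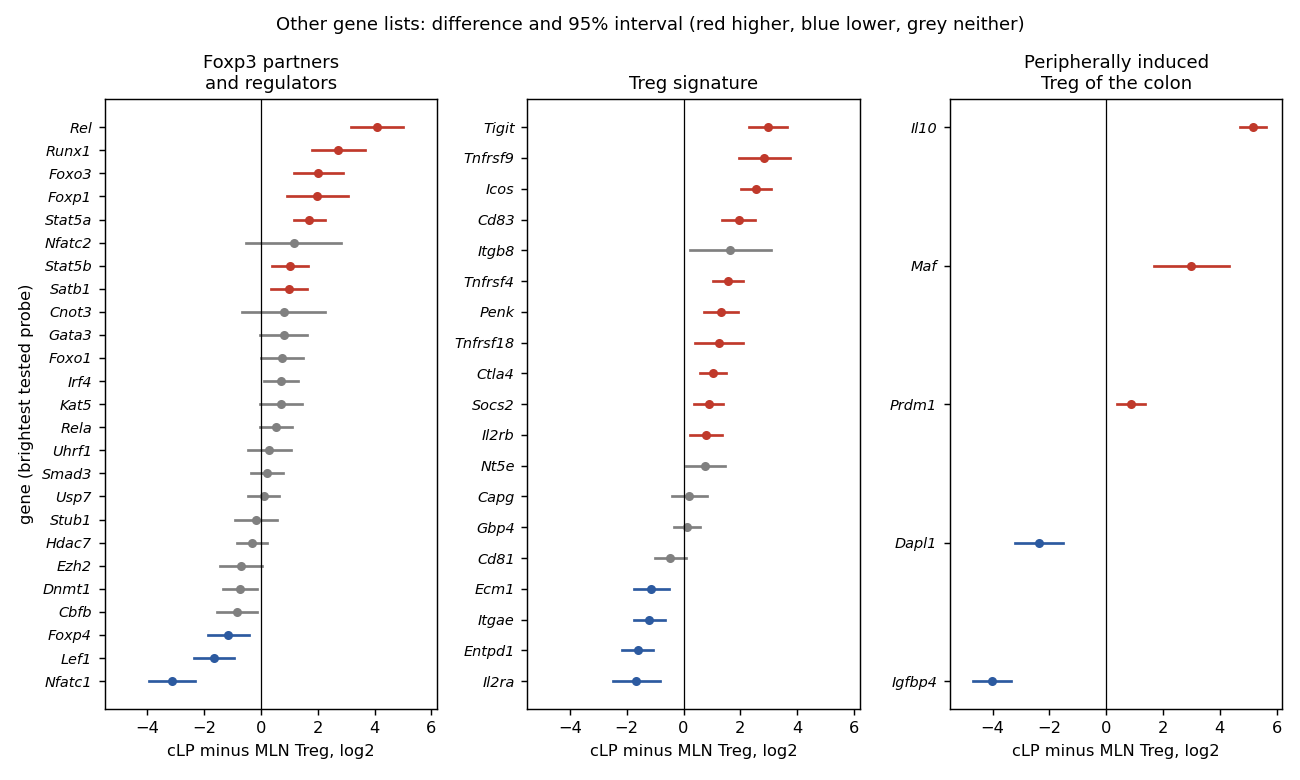
Difference between cLP Treg and MLN Treg with 95% interval, for the brightest tested probe of each measured gene in 3 further lists; red passed as higher, blue as lower and grey did not pass. Of the genes shown, 7 of 25, 10 of 19 and 3 of 5 are red.

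Markers of other cells that a sort could hold were compared in the same samples, as sums of normalised intensity over the brightest probe of each marker. In bulk samples, fewer cells of a type and less RNA per cell cannot be told apart. For B cells, which express Ikzf1, Ikzf3 and Swap70, the sum was 400 to 699 in MLN Treg and 153 to 211 in cLP Treg; of 3 measured of 6 listed, Cd79b fell, and Pax5 was not detected on any array. Stromal and endothelial markers, among cells where Nrp1 is found, summed to 1340 to 1700 in MLN Treg and 5320 to 5580 in cLP Treg. In MLN Treg the sum was led by Pecam1 and Vim, at 9.49 ± 0.27 and 9.21 ± 0.25 (SD, n = 3 each). In cLP Treg it was led by Vim and Acta2, at 11.28 ± 0.27 and 10.67 ± 0.65. There 3 of 5 measured genes (Col3a1, Acta2 and Vim) rose, while Cdh5 and Col1a1 were not detected on any array. Col3a1 and Acta2 were detected on no MLN array and were tested only because of their level in cLP Treg. For plasma cells the sums were 2600 to 2630 and 5150 to 5320. Both were led by the probe of Xbp1, at 11.27 ± 0.01 and 12.29 ± 0.02 (SD, n = 3 each), which passed as higher. Jchain was dim, at 5.34 ± 0.22 and 6.67 ± 0.70. It was detected and tested through cLP Treg only, where it passed as higher, and Sdc1 and Tnfrsf17 were not detected.

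For macrophages, dendritic cells and granulocytes the sums were 805 to 860 in MLN Treg and 643 to 1060 in cLP Treg, with Lyz2 lower and Itgam and Itgax not detected. Innate lymphoid and mast cell markers summed to 211 to 296 and to 265 to 541, with Kit higher. Epithelial markers summed to 437 to 568 and to 766 to 1400. Of 7 listed, 3 were tested and none passed. On the MLN arrays 4 of the 7 were not detected at all, and on the cLP arrays 1, Vil1. Conventional helper T cell markers summed to 132 to 330 and to 295 to 1200, with Ifng the only one measured and Cd40lg, Il4 and Il21 not detected. The part of these cells in the differences of the members was not tested. Of the Treg and CD4 T cell markers, Cd3e, Cd3d, Cd3g, Cd4, Il2ra, Ctla4 and Tnfrsf18 as well as Foxp3 were detected on every array. Among them Cd4 was dim, at 6.86 ± 0.10 in MLN Treg and 6.79 ± 0.26 in cLP Treg (SD, n = 3 each). Ctla4 and Tnfrsf18 were higher in cLP Treg, and Il2ra was lower (-1.66 ± 0.36, limma, adjusted p = 0.0125). Cd8a, Eomes and Gzmk were not detected on any array. Cytotoxic and CD8 T cell markers summed to 19400 to 24200 in MLN Treg and 31800 to 32900 in cLP Treg, led by the probes of Prf1, which was higher in cLP Treg, and Cd8b1, at 12.30 ± 0.15 and 11.53 ± 0.42 (SD, n = 3 each), which did not pass.

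The genes whose values over the 6 arrays ran most alike to a member were ranked by Pearson's r on the brightest probe, as a description only, since all share the same arrays and the same normalisation. For Foxp3 they were Zfp64 (0.998), Nmt1 (0.987) and Olfr1386 (0.987). For Helios they were Ifnar1, H2ac21 and Nudc (0.993 to 0.987). For Gpr83 they were Sh2d3c (0.998), Ifih1 (0.997) and Abhd18 (0.997), with differences of -3.04, -1.52 and -3.33. These were drawn from the 9157 genes tested with 1 probe each.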

How the data were processed

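The arrays were read as the table of intensities that the authors deposited, on a linear scale; the submitters' processing notes name GenomeStudio 1.6.0. A detection column per array, deposited as a fraction, increases with intensity (Spearman correlation 0.991 or more), so the detection p was taken as 1 minus it. The authors' deposited series matrix holds log2 values, equal to the log2 intensity minus that of the array's upper quartile point with no centring, so scale, centring and direction are known; its column medians were -0.728, -0.607 and -0.848 (MLN samples 1 to 3) and -0.596, -0.689 and -0.661 (cLP samples 1 to 3). Rows of both tables were paired by their values on all 6 arrays (largest difference 0.0347 in signal), which names the probes through the platform annotation: 34885 probes have 1 symbol, 18 several and 10378 none.

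Background was corrected by normexp with an offset of 16, followed by quantile normalisation, in limma 3.58.1 and R 4.3.3. Probes with a detection p under 0.05 on at least 3 arrays were fitted with lmFit and eBayes, tested on simulated data. Each probe is reported on its own. "At least" marks a fold whose dimmer group had no detected array; that group's mean then uses, for each array, the lowest detected signal or the probe's own, whichever is higher. The share of probes detected was 32.68% to 35.43% per array, and the number of arrays limits the precision. No batch was fitted, as the labels name neither chip nor scan.

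Members and lists were chosen with earlier results of these data known. Named beside the members are, per list, the 3 genes with the largest difference among those that passed, and, chosen after their values were seen, those that complete a small count. Alternatives changed the background correction, scaling, detection filter, source of values, probe choice, replicate block and samples.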

Additional observations from a re-analysis of the deposited data

How the results depend on the processing

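Of 302 repeats of the 23 tested member probes, 260 kept direction and side of the threshold, 25 kept direction but no longer passed, 7 newly passed and 10 turned sign, all 10 of them Foxp3 probes that never passed. ILMN_1251126 stood at -0.16 with median scaling and -0.03 in the authors' deposited values, ILMN_2917180 at -0.16 and -0.08, and ILMN_2635132 at 0.10 relative to the median difference; leaving out 1 sample gave -0.15 to 0.10 for ILMN_2635132 and -0.08 to 0.35 for ILMN_1251126. Ikzf5 stood at -0.11 with median scaling and -0.01 in the authors' values, and at -0.05 to 0.22 with 1 sample left out. The median difference over all probes was -0.36 with median scaling and -0.16 in the authors' values. Without a detection filter 5 member probes were lower. With 1 probe per gene 2 members were higher and 3 lower, since fewer probes were tested, and 1107 genes were higher and 1861 lower overall. Median scaling left 4471 probes lower, and detection on all 6 arrays 1542 higher. With 1 sample left out, 1529 to 2548 probes were higher and 1525 to 3094 lower, the lowest of both without MLN sample 1 (1720 and 1743 lower without MLN samples 2 and 3), and 5 to 7 members were higher and 6 to 10 lower. The cause was not tested. With the replicate block 5 members were higher and 10 lower, and Helios no longer passed (2.23, adjusted p = 0.0552); same-numbered samples deviated with r of -0.17, -0.10 and -0.02, so the numbers were not taken as pairs. Among the lists, alternatives added after seeing the data, genes acting with Foxp3 had 6 lower with median scaling and 5 in the authors' values, and 4 higher without a detection filter. Dim probes near background limit Plagl1 and the undetected groups' levels.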
